A study of Homo sapiens with 8 samples.

Results

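The gene expression profile of 5-NA-treated 293T cells was compared directly with that of EerI-treated 293T cells. The members of this comparison are the 4 arrays labelled as treated with 5-NA or with EerI, out of 8 arrays in the series, and every one of the 54675 probe sets of the array was used. 293T cells are human embryonic kidney cells in culture that express the large T antigen of SV40. Both compounds were given at 10 µM for 10 h, with 2 arrays each. The study found EerI to be the less toxic of the pair in a lymphoma cell line. The same molar dose is therefore not known to be an equally effective one in these cells. The part of effective dose in the differences between the compounds was not tested. The values of 2 arrays of control cells show on which side of the untreated level a difference lay. These control arrays, and 2 arrays of cells given a further compound, CBU-028, at 10 µM for 10 h, also entered the fit. There they added to the estimate of the spread behind every p-value and interval. Whether the control cells received solvent is not stated. The labels describe the treatments as done in duplicate and do not say that the duplicates were separate cultures. The study calls its p-values those of a biological replicate without describing the cultures, so the p-values here measure the spread between these samples. The identity of the 5-NA arrays was taken from their source and description, because the number in their titles belongs to CBU-029 in the compound list of the study.

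EerI (Eeyarestatin I) is an inhibitor of ER-associated degradation (ERAD), the process by which misfolded proteins are drawn out of the endoplasmic reticulum by the p97 ATPase and destroyed by the proteasome. As the study describes it, EerI consists of a nitrofuran-containing (NFC) group joined to an aromatic domain. 5-NA (5-nitrofuryl-acrolein), an unsaturated aldehyde, stands there for the NFC group alone. The group is conjugated in EerI and a free aldehyde in 5-NA, so the aromatic domain need not be the only difference of the pair. Which part of the structures goes with a difference in expression was not tested. Cells that sense misfolded ER proteins or a lack of amino acids phosphorylate the initiation factor eIF2α, which lets the transcription factor ATF4 switch on amino acid synthesis, transport and stress genes. Misfolded proteins in the cytosol instead release heat shock factor 1, and reactive chemicals release NRF2, which drives antioxidant genes.

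All values are RMA intensities on a log2 scale, so a difference of 1 is a 2-fold difference, and each difference is given as 5-NA minus EerI. Array medians ranged between 6.89 and 6.93, and duplicates correlated across probe sets with r = 0.9974 for 5-NA and 0.99827 for EerI. A limma fit over all arrays gave a median standard error of 0.099 for the difference of a probe set. The difference of the 3′ and 5′ probe sets of ACTB, which widens when RNA is degraded, was 0.178 and 0.363 with 5-NA, 0.138 and 0.18 with EerI, and 0.147 and 0.13 in control cells. The part of the higher value of 5-NA replicate 2 in the results was not tested. Of 10 genes listed as markers of this cell line, 9 had a mean log2 value of at least 7 in each of the 3 groups, among them VIM, KRT18 and NEFL, and PAX2 did not. The summed level of these markers was 15.33 and 15.37 with 5-NA, 15.42 and 15.39 with EerI, and 15.43 and 15.45 in control cells. The defining markers of B-lineage cells lay at or below 7.74 in both treated groups, and those of T and myeloid cells at or below 7.06. By the same floor of 7, 4 of 11 measured B-lineage markers passed with 5-NA, 3 with EerI and 3 in control cells. Of 9 measured T and myeloid markers, none passed with 5-NA, 2 with EerI (CD3D and CD3E) and 1 in control cells. Of these lists, 1 kidney line marker was higher with 5-NA and 1 lower, 1 of 11 measured B-lineage markers was higher, and 1 of 9 measured T and myeloid markers was higher. The last was CD14, a monocyte surface receptor, at 6.91 and 6.89 with 5-NA against 5.83 and 6.16 with EerI, and it alone kept its call when single arrays were left out. In bulk RNA, fewer cells of a kind and less RNA per cell cannot be told apart.

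More genes stood higher with 5-NA than with EerI than the reverse at 2-fold. At an adjusted p under 0.05 and 2-fold, 196 probe sets (0.358% of those tested) were higher with 5-NA and 73 (0.134%) were lower, and the largest difference was 3.99 upward and 1.62 downward. By the adjusted p alone the counts were nearly even, with 3787 higher (6.93%) and 3872 lower (7.08%). The median difference over all probe sets was -0.016, and 93.6% of them differed by less than 0.5 in either direction. For 75.7% the whole 95% interval lay within 0.5 of 0, so that for most probe sets a difference above 0.5 was outside the interval. When each gene was represented by its brightest probe set, 94 of 19775 genes (0.475%) were higher at 2-fold and 33 (0.167%) lower. By the adjusted p alone, 1568 genes (7.93%) were higher and 1911 (9.66%) lower. Counts and shares of list members are to be read beside these shares of all genes. Both 5-NA arrays lay above both EerI arrays for 25.7% of probe sets (26.1% of genes) and below both for 30.9% (35.1% of genes), so a lack of overlap between 2 arrays and 2 arrays is common on its own. An exact permutation test of single genes could not have gone below p = 0.333 with 2 arrays a group.

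**Figure D1:**
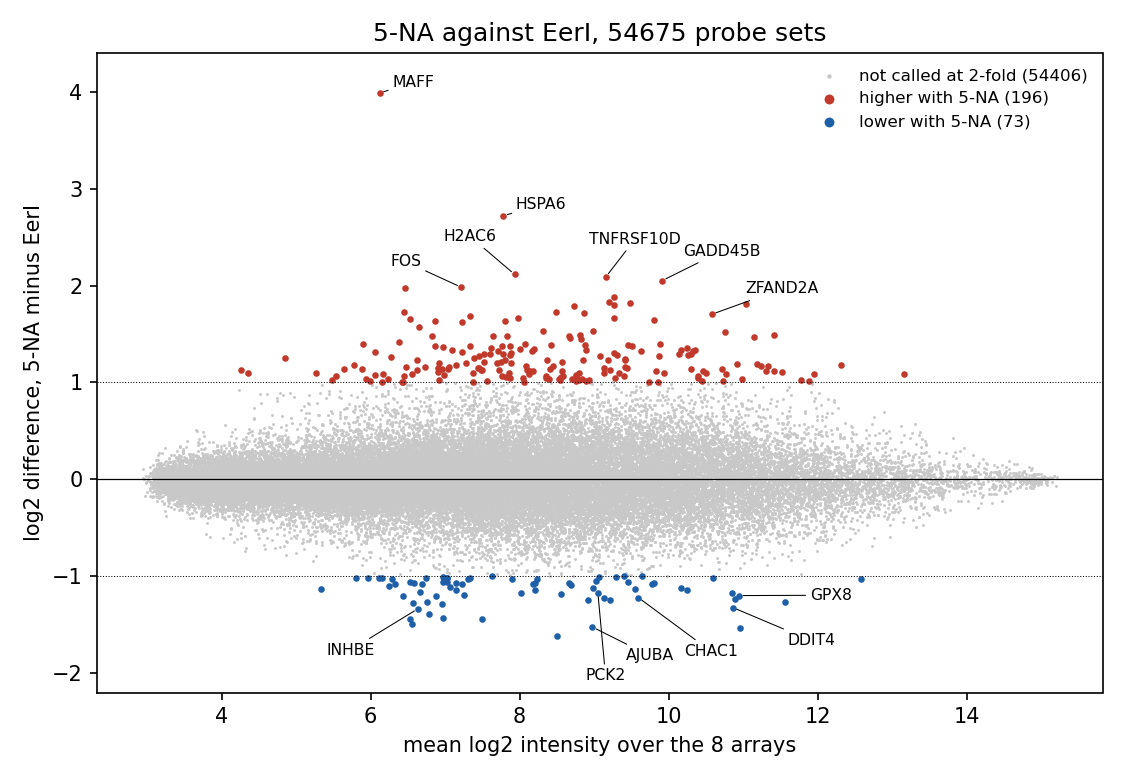
Log2 difference of 5-NA minus EerI (vertical axis) against the mean log2 intensity over the 8 arrays (horizontal axis) for all 54675 probe sets. The 196 probe sets called higher with 5-NA at 2-fold (red) reach 3.99 and the 73 called lower (blue) reach -1.62, with dotted lines at a 2-fold difference.

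The control arrays placed these differences. Among the 196 probe sets higher with 5-NA, the control mean was nearer the EerI mean in 192 (98%), with a median of 1.15 for 5-NA minus control and of -0.05 for EerI minus control. Among the 73 lower ones, the control mean was nearer the EerI mean in 56 (76.7%) and nearer the 5-NA mean in 17. At the level of genes, the control was nearer 5-NA for 8 of the 33 lower genes, namely AJUBA, ALDH1L2, CHAC1, DDIT4, INHBE, LINC00662, PCK2 and ZBED3. For 3 of the 94 higher genes it was nearer 5-NA, and these were CDKN1C, NOTCH1 and ND6. LINC00662, ZBED3, CDKN1C and NOTCH1 were picked out after their values were seen. At most of the 2-fold differences the control was thus nearer to EerI than to 5-NA. This does not mean that EerI was always at the control level. The control mean lay below both compounds in 81 of the 196 higher probe sets and above both in 17 of the 73 lower ones.

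**Figure D2:**
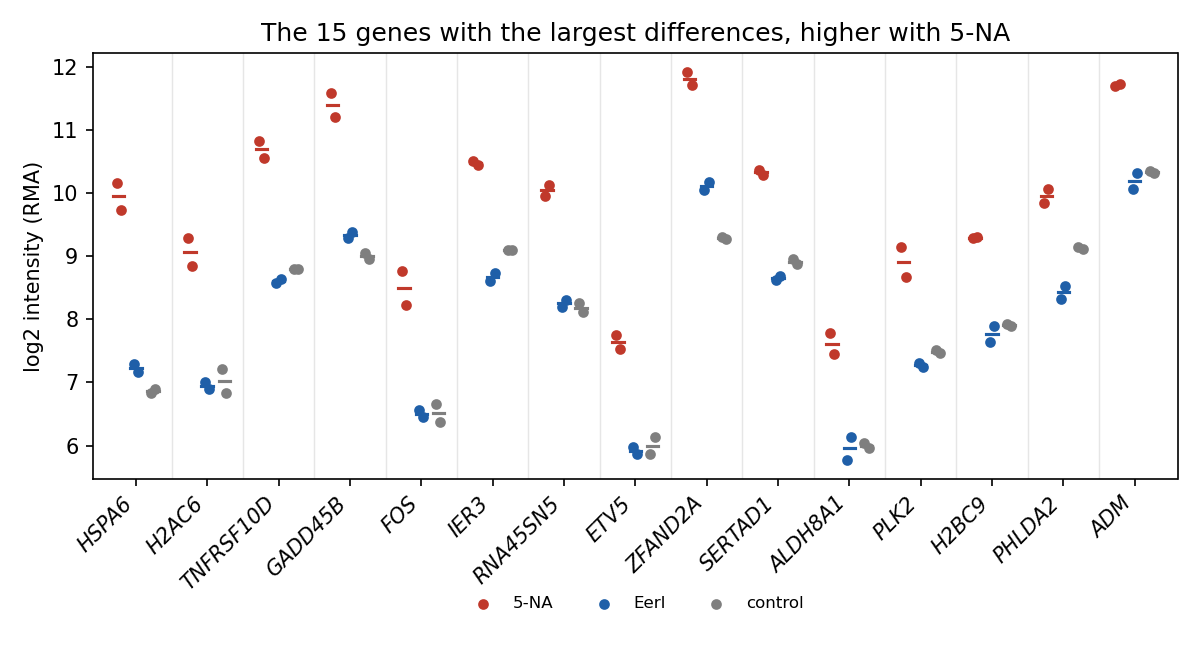
Log2 intensity of the 15 genes with the largest differences upward, with 5-NA (red), EerI (blue) and control (grey), 1 point per array and a bar at the mean of the 2 arrays. In all 15 genes both 5-NA points lie above both EerI points, and the differences run between 1.52 (ADM) and 2.72 (HSPA6).

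Heat shock genes gave the largest difference of any gene by its brightest probe set. HSPA6, an HSP70 made almost only under proteotoxic stress, was at 10.16 and 9.73 with 5-NA, against 7.29 and 7.16 with EerI and 6.84 and 6.90 in control cells. The difference was 2.72 (6.59-fold, 95% interval 2.40 to 3.04, adjusted p = 8.24e-05), and the second probe set of the gene differed by 1.68. ZFAND2A, an arsenite-induced protein that binds the proteasome, was at 11.91 and 11.71 with 5-NA, against 10.05 and 10.17 with EerI and 9.31 and 9.27 in control cells, a difference of 1.70. HSPA2, an HSP70 best known from the testis, was at 8.75 and 8.75 with 5-NA against 7.48 and 7.37 with EerI. BAG3, an HSP70 co-chaperone that feeds clients to autophagy, was at 12.10 and 12.09 with 5-NA against 10.92 and 10.89 with EerI, and the HSP40 DNAJB1 was at 13.07 and 12.72 against 11.82 and 11.80. In each of these genes the arrays of the 2 compounds were well apart, and EerI was within 0.82 of the control. Of 22 measured heat shock genes, 7 were higher with 5-NA (31.8%, beside 7.93% of all genes) and none was lower, with a list median of 0.18 beside -0.028 for all genes. HSPA1L and HSPH1 completed the 7, and the count was 5 to 7 when single arrays were left out. The mitochondrial chaperones HSPD1 and HSPE1 differed by -0.05 (-0.21 to 0.12) and -0.01 (-0.22 to 0.20), and the HSP90 co-chaperone STIP1 by 0.03 (-0.19 to 0.26).

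Heat shock factor binds inverted repeats of GAA, and the letters GAANNTTC, searched on both strands in the 250 bases before each RefSeq start (GRCh38.p14), show 1 such pair. It was present in 10 of the 20 measured heat shock genes with a promoter sequence, in 7.05% of all genes and in 5.78% of all promoters. Among the 7 heat shock genes higher with 5-NA it was present in 3, HSPA6, DNAJB1 and HSPA1L. Matches are shown in capitals because these genes include the largest difference between the compounds. The stretch of HSPA6 was cut to 120 bases, and what matched farther upstream in the window is not shown. A match describes these letters only, and ZFAND2A, HSPA2, BAG3 and HSPH1 had none in this window.
HSPA6 (chr1:161524374-161524493, plus strand): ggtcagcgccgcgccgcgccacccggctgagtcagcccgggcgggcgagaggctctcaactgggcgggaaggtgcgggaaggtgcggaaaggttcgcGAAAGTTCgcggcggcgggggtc
DNAJB1 (chr19:14518422-14518489, minus strand): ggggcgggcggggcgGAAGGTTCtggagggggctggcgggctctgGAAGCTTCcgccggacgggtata
HSPA1L (chr6:31815422-31815459, minus strand): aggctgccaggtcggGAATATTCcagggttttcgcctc

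NRF2 targets were partly higher with 5-NA. Of 23 measured genes, 8 were higher (34.8%) and SLC7A11 alone was lower, with a median of 0.15. The higher ones included GCLM, a subunit of the enzyme that limits glutathione synthesis, at 12.57 and 12.66 with 5-NA against 11.97 and 11.95 with EerI and 11.12 and 11.16 in control cells. SQSTM1, the autophagy receptor p62, was at 11.57 and 11.36 with 5-NA against 10.74 and 10.67 with EerI, and its 5 probe sets disagreed, with differences between -0.45 and 0.76. MAFG, a small MAF protein that pairs with NRF2 on DNA, was at 11.12 and 11.22 with 5-NA against 9.94 and 10.12 with EerI, a difference of 1.14 (adjusted p = 0.000386). The control mean was nearer the EerI mean for each of the 8. The 8 fell to 4 without 5-NA replicate 1, 3 without EerI replicate 1 and 5 without EerI replicate 2, and NQO1, a quinone reductase, lost its call without 5-NA replicate 1 or EerI replicate 1. The peroxidase PRDX1 differed by 0.00 (-0.16 to 0.17) and malic enzyme ME1 by 0.03 (-0.14 to 0.20).

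The largest difference of all probe sets belonged to MAFF, a small MAF protein related to MAFG, which was singled out after its values were seen. Its dimmer probe set was at 8.99 and 8.53 with 5-NA, against 4.71 and 4.84 with EerI and 5.03 and 4.71 in control cells, a difference of 3.99 (3.60 to 4.38, adjusted p = 4.72e-05). The brighter probe set of MAFF was at 7.55 and 7.45 with 5-NA against 7.01 and 7.05 with EerI, a difference of 0.47 (0.30 to 0.65). Both probe sets were higher with 5-NA, and they gave very different sizes for one gene.

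Immediate early genes, which growth factors and stress kinases switch on within minutes and which encode short-lived factors such as AP-1, were higher with 5-NA in 15 of 26 measured cases (57.7%, beside 7.93% of all genes). JUN and KLF6 were lower and 9 did not pass the test, with a median of 0.57. FOS, an AP-1 subunit, was at 8.76 and 8.22 with 5-NA, against 6.56 and 6.45 with EerI and 6.66 and 6.38 in control cells, a difference of 1.98 (3.95-fold, adjusted p = 0.000414). IER3, an early response gene linked to survival, was at 10.51 and 10.44 with 5-NA, against 8.60 and 8.74 with EerI and 9.10 and 9.09 in control cells. FOSL1, another AP-1 subunit, was at least at 8.89 in both 5-NA arrays against 7.63 and 7.57 with EerI, and IER2 at 12.23 and 12.17 against 11.29 and 11.26. EerI-treated cells were at the control level for FOS, FOSL1 and IER2, with differences from control of -0.02, 0.09 and 0.00. EGR1, a zinc finger factor of the same wave, gave unlike values by probe set. Its dimmer probe sets differed by 0.53, which passed the test, and by 0.09, which did not. Its brightest was at 8.50 and 7.61 with 5-NA against 6.67 and 6.77 with EerI. Its 5-NA arrays differed by more than those of the other genes, and its adjusted p of 0.00577 became 0.052 without EerI replicate 1. The count of 15 was 11 to 16 when single arrays were left out, and the 2 lower genes were 1 without 5-NA replicate 1 or EerI replicate 2 and none without EerI replicate 1. MYC, which is already high in these cells, differed by -0.03 (-0.22 to 0.15), and EGR4 by -0.06 (-0.23 to 0.11).

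The phosphatases that switch MAP kinases off again, and the Sprouty-related inhibitors of the same pathway, went partly the same way. Of 15 genes, 7 were higher (46.7%) and DUSP16 was lower, with a median of 0.30. DUSP5, a nuclear phosphatase of ERK, was at 8.89 and 8.45 with 5-NA, against 7.35 and 7.40 with EerI and 7.58 and 7.49 in control cells, a difference of 1.30. ETV5, an ETS factor downstream of ERK, was at 7.75 and 7.53 with 5-NA against 5.98 and 5.86 with EerI and was among the 15 largest differences, although only 1 of its 5 probe sets passed the test. DUSP1, which acts on stress kinases, was at 11.84 and 11.84 with 5-NA, against 11.22 and 11.19 with EerI and 10.62 and 10.67 in control cells, so that EerI was above control as well. DUSP6, the cytoplasmic ERK phosphatase, differed by -0.02 (-0.38 to 0.34). The 7 fell to 4 without 5-NA replicate 2 or EerI replicate 1. The single lower gene lost its call without any of the 5-NA, EerI or control arrays, and the lower genes were 2 without either CBU-028 array.

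Of 20 measured genes of the GADD45 family and known p53 targets, 12 were higher (60%) and DDB2 and CCNG1 were lower, with a median of 0.62, and 7 of the 12 passed 2-fold. GADD45B, a growth arrest protein that activates stress kinases, was at 11.58 and 11.20 with 5-NA, against 9.29 and 9.38 with EerI and 9.05 and 8.96 in control cells, a difference of 2.05 (4.15-fold). CDKN1A, the cell cycle inhibitor p21, was at 11.38 and 11.13 with 5-NA, against 10.15 and 10.13 with EerI and 10.04 and 10.05 in control cells. The polo-like kinases PLK2 and PLK3, which respond to stress, were higher by 1.63 and 1.13. Large T antigen is known to bind p53. Among targets with narrow intervals, SESN1 differed by -0.04 (-0.22 to 0.15), RRM2B by -0.07 (-0.27 to 0.13), and BAX by -0.20 (-0.42 to 0.01). The 12 were 10 to 13 when single arrays were left out, the 2 lower genes lost their calls without any 5-NA or EerI array, and CCNG1 also without either control array.

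TRAIL receptors were among these genes. TNFRSF10D, a decoy receptor that binds TRAIL without passing the death signal, was at 10.83 and 10.56 with 5-NA, against 8.57 and 8.64 with EerI and 8.80 and 8.79 in control cells, a difference of 2.09 (4.25-fold, adjusted p = 5.8e-05). TNFRSF10B, the death receptor DR5, was at 12.42 and 12.51 with 5-NA, against 11.42 and 11.47 with EerI and 11.48 and 11.54 in control cells. For both receptors EerI was slightly below control, and the ligand TNFSF10 differed by 0.07 (-0.11 to 0.25). Of 13 measured genes of the death receptor list, these 2 were higher (15.4%), and CASP8, the caspase the receptors activate, and its inhibitor CFLAR were lower, with differences of -0.41 each. The lower genes of this list were 0 without EerI replicate 1 and 1 without any other 5-NA, EerI or control array. The BCL2 family was split, with 4 of 17 genes higher (23.5%, beside 7.93% of all genes) and 2 lower (11.8%, beside 9.66%). BCL2L11 (BIM) and BIK, which promote death, were higher by 1.30 and 1.34, and 6 of the 7 probe sets of BCL2L11 passed the test in that direction. MCL1, which protects cells, was at 12.34 and 12.24 with 5-NA against 11.75 and 11.74 with EerI. BCL2L2, another protective member, was lower at 8.71 and 8.93 against 9.77 and 9.61, as was the neuronal death gene HRK at 8.49 and 8.54 against 9.17 and 9.08. PMAIP1 (NOXA), a death gene that ATF4 and ATF3 can switch on, was at 12.88 and 12.62 with 5-NA, against 12.99 and 12.93 with EerI and 12.17 and 12.18 in control cells, and its difference of -0.21 (-0.46 to 0.03, adjusted p = 0.245) did not pass the test.

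Histone genes were the list with the largest share of higher members, 13 of 16 measured (81.2%, beside 7.93% of all genes), with a median of 0.83 and none lower. H2AC6 was at 9.29 and 8.84 with 5-NA, against 7.01 and 6.89 with EerI and 7.21 and 6.84 in control cells, a difference of 2.12 (4.33-fold, adjusted p = 0.000217). H2BC9 was at 9.29 and 9.30 with 5-NA against 7.64 and 7.89 with EerI, and the bright H2BC12 at 13.02 and 13.12 against 11.85 and 11.92. In these 3 genes EerI-treated cells were within 0.15 of the control. H2BC6 and H2BC5 were higher by 1.33 and 1.27, and 7 of the 13 passed 2-fold. H2AZ1, a variant histone made throughout the cell cycle, was at 13.90 and 13.98 with 5-NA against 13.95 and 14.03 with EerI, a difference of -0.05 (-0.23 to 0.13), and the linker histone H1-10 differed by -0.15 (-0.41 to 0.11). The cluster genes are near-identical copies, so probes may read more than one of them and the values of single genes are uncertain. Whether these array signals follow the total amount of histone mRNA was not tested. The count was 10 to 14 when single arrays were left out.

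Replication-dependent histone promoters are known for CCAAT and TATA boxes. CCAAT, on either strand within 250 bases before the start, was present in 14 of the 16 measured histone genes, 12 of them among the 13 higher ones, and in 37% of all genes (32% of promoters). TATAAA was present in 11 of the 16, 9 of them among the 13, and in 13% of all genes (10.7% of promoters). The promoters of H2AC6 and H2BC9 are shown for the largest histone differences, with CCAAT on either strand (ATTGG on the opposite one) and, in H2AC6, TATAAA in capitals. The stretch of H2AC6 was cut to 120 bases, and what matched farther upstream in the window is not shown.
H2AC6 (chr6:26124042-26124161, plus strand): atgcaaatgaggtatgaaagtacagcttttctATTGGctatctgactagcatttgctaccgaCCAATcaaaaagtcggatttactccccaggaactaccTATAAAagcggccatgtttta
H2BC9 (chr6:26251470-26251553, plus strand): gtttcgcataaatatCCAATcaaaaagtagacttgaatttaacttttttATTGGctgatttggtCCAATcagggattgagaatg
Among the 72 of the 94 genes higher at 2-fold that had a promoter sequence, 20 (27.8%) held TATAAA and 35 (48.6%) CCAAT, and among the 27 of 33 lower ones 3 (11.1%) and 7 (25.9%), where histone genes are counted with the rest.

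Of 29 measured PERK and ATF4 targets, 10 were lower with 5-NA (34.5%, beside 9.66% of all genes), 5 were higher (17.2%) and 14 did not pass the test, with a median of -0.28. Over the whole list the median was 0.87 for 5-NA minus control and 0.91 for EerI minus control. DDIT4 (REDD1), which restrains mTORC1, was at 10.56 and 10.41 with 5-NA, against 11.83 and 11.79 with EerI and 9.44 and 9.24 in control cells, a difference of -1.32 (-1.54 to -1.11, adjusted p = 0.000204). CHAC1, which degrades glutathione, was at 9.61 and 9.21 with 5-NA, against 10.64 and 10.61 with EerI and 7.28 and 7.49 in control cells, a difference of -1.22 (-1.52 to -0.92). INHBE, a secreted activin subunit, was at 6.29 and 6.12 with 5-NA, against 7.60 and 7.48 with EerI and 5.16 and 5.42 in control cells. In all 3 genes the 5-NA arrays lay between the control and the EerI arrays. Of the 10 lower genes, 8 had a control mean below both compounds, and over these 10, which were chosen by this difference, the median was 1.03 for 5-NA minus control and 1.92 for EerI minus control.

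The factors at the head of the programme differed less. ATF4 itself was at 13.78 and 13.60 with 5-NA, against at least 13.99 in both EerI arrays and 13.17 and 13.25 in control cells, a difference of -0.30 (-0.51 to -0.10) that missed the threshold (adjusted p = 0.0556). ATF3 was at 11.99 and 11.72 with 5-NA, against 11.70 and 11.70 with EerI and 9.77 and 9.89 in control cells, a difference of 0.16 (-0.09 to 0.40). DDIT3 (CHOP), a factor linked to death after prolonged ER stress, was at 10.16 and 9.92 with 5-NA, against 10.27 and 10.37 with EerI and 8.50 and 8.49 in control cells, a difference of -0.28 (-0.51 to -0.04, adjusted p = 0.117). For these 3 factors the intervals reached no further than 0.51 on the log2 scale in either direction. TRIB3, a CHOP target, and VEGFA differed by -0.04 (-0.21 to 0.14) and -0.02 (-0.19 to 0.16), so the smaller response of CHAC1, DDIT4 and INHBE to 5-NA was not shared by every target.

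Among the 5 targets higher with 5-NA, PPP1R15A (GADD34) brings the phosphatase that removes phosphate from eIF2α and so ends the response. It was at 10.90 and 10.70 with 5-NA, against 9.77 and 9.63 with EerI and a mean of 8.98 in control cells, a difference of 1.10 (0.88 to 1.32, adjusted p = 0.000386). GDF15, a secreted stress hormone, was at 7.10 and 6.90 with 5-NA against 6.28 and 6.27 with EerI, and lost its call without 5-NA replicate 1 or either EerI array. The control mean was below both compounds and nearer EerI for each of the 5. The 5 fell to 2 without EerI replicate 1, whereas the lower genes were 7 to 12 when single arrays were left out.

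**Figure D3:**
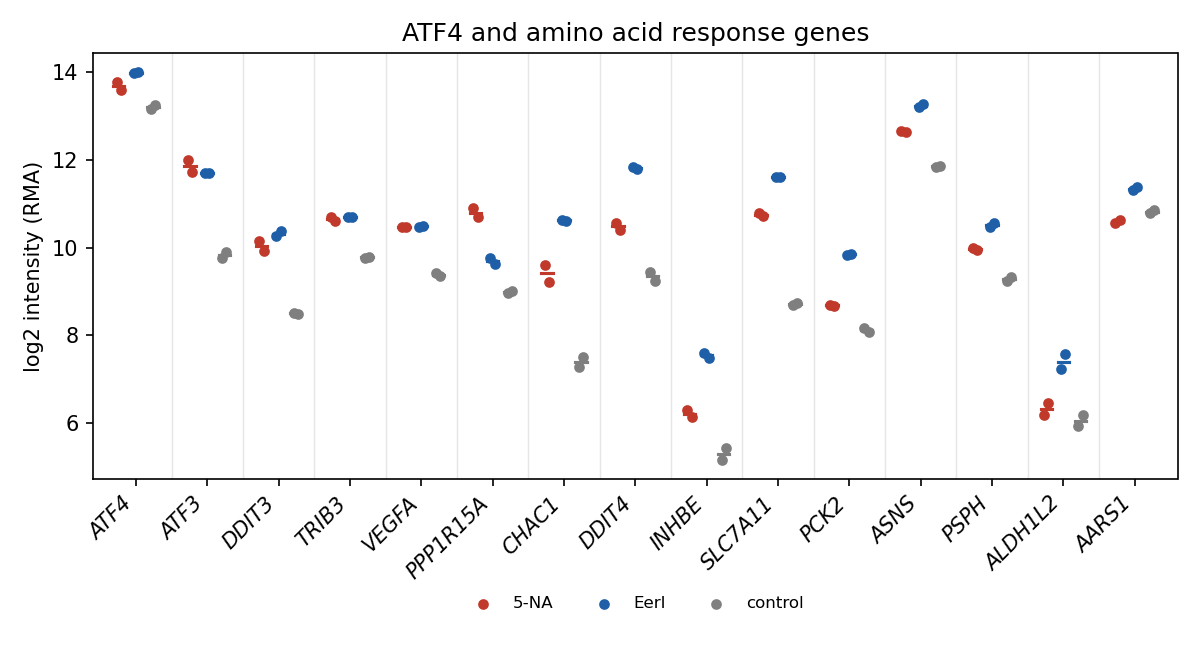
Log2 intensity of ATF4, ATF3, DDIT3 and further genes of the amino acid and ER stress response, with 5-NA (red), EerI (blue) and control (grey), 1 point per array and a bar at the mean. ATF3, TRIB3 and VEGFA nearly coincide between the compounds, PPP1R15A is higher with 5-NA by 1.10, and CHAC1, DDIT4, INHBE and PCK2 are lower, with differences between -1.33 and -1.17.

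The listed genes that make, import and load amino acids were lower with 5-NA or did not pass the test, and none of them was higher. Not all of them stood above control with EerI. Of 13 measured enzymes of serine, asparagine and one-carbon metabolism, 7 were lower (53.8%), with a median of -0.29. PCK2, which links mitochondrial metabolites to serine synthesis, was at 8.69 and 8.67 with 5-NA, against 9.84 and 9.85 with EerI and 8.16 and 8.08 in control cells, a difference of -1.17 (adjusted p = 0.000137). ASNS, asparagine synthetase, was at 12.65 and 12.63 with 5-NA, against 13.21 and 13.27 with EerI and 11.84 and 11.87 in control cells. ALDH1L2, a mitochondrial folate enzyme, was at 6.18 and 6.44 with 5-NA, against 7.23 and 7.56 with EerI and 5.93 and 6.17 in control cells. PSPH, the last enzyme of serine synthesis, and PYCR1, the last of proline synthesis, were lower, with differences of -0.56 and -0.52. The mitochondrial enzyme MTHFD2 differed by -0.19 (-0.37 to -0.01, adjusted p = 0.157), and the cytosolic enzymes MTHFD1 and SHMT1 by -0.12 and -0.00. The 7 were 6 or 7 when single arrays were left out.

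Of 14 amino acid transporters, 4 were lower (28.6%), with a median of -0.08. SLC7A11, which imports cystine for glutathione, was at 10.79 and 10.71 with 5-NA, against 11.60 and 11.61 with EerI and 8.68 and 8.73 in control cells, a difference of -0.86 (-1.04 to -0.68). SLC43A1 and SLC6A9, carriers of leucine and glycine, had differences of -0.74 and -0.66. SLC7A1 and SLC38A2, which were above control with EerI by 0.59 and 0.68, differed between the compounds by only -0.01 (-0.18 to 0.17) and -0.02 (-0.20 to 0.16). SLC38A1 lost its call, at a difference of -0.44, without 5-NA replicate 2 or either EerI array.

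The cytosolic tRNA synthetases, which load amino acids onto tRNA, had the largest share of lower members of any list, 10 of 17 (58.8%), with all 17 differences below 0 and a median of -0.34. AARS1 was at 10.55 and 10.62 with 5-NA, against 11.31 and 11.38 with EerI and 10.79 and 10.85 in control cells, a difference of -0.76 (-0.94 to -0.58, adjusted p = 0.000686). GARS1 was at 13.02 and 12.95 with 5-NA, against 13.44 and 13.40 with EerI and 12.67 and 12.69 in control cells. FARSA was at 11.76 and 11.54 with 5-NA, against 12.22 and 12.31 with EerI and 12.32 and 12.35 in control cells. Thus the control lay between the compounds for AARS1, below both for GARS1 and at the EerI level for FARSA. The median over the list was -0.00 for 5-NA minus control and 0.38 for EerI minus control. The differences were small and the count depended on single arrays: it was 6 without 5-NA replicate 1, 3 without 5-NA replicate 2, 2 without EerI replicate 1 and 1 without EerI replicate 2. HARS1 and KARS1 differed by -0.00 (-0.20 to 0.20) and -0.02 (-0.19 to 0.15).

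ATF4 and C/EBP factors bind a composite element with the letters TGATGNAA. Within 250 bases before the start, on either strand, it was present in 3.14% of all promoters and in 3.89% of all genes. It was present in 5 of 25 measured PERK and ATF4 targets, in 2 of 9 serine, asparagine and one-carbon enzymes, in 1 of 12 amino acid transporters (SLC1A5, and none of the 3 lower ones), and in 3 of 14 tRNA synthetases with a promoter sequence. Of the lower genes of these lists, CHAC1, JDP2, ASNS, AARS1, GARS1 and IARS1 held it. The stretches of CHAC1, ASNS and AARS1 are shown with the element in capitals, since they are lower genes of 3 of these lists (TTGCATCA is the element on the opposite strand).
CHAC1 (chr15:40953247-40953284, plus strand): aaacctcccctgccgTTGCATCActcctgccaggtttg
ASNS (chr7:97872454-97872491, minus strand): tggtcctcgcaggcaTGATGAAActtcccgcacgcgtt
AARS1 (chr16:70289671-70289708, minus strand): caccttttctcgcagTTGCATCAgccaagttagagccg
The element was also in the promoters of ATF3 and CEBPG, of which ATF3 did not pass the test and CEBPG was higher with 5-NA.

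**Figure D4:**
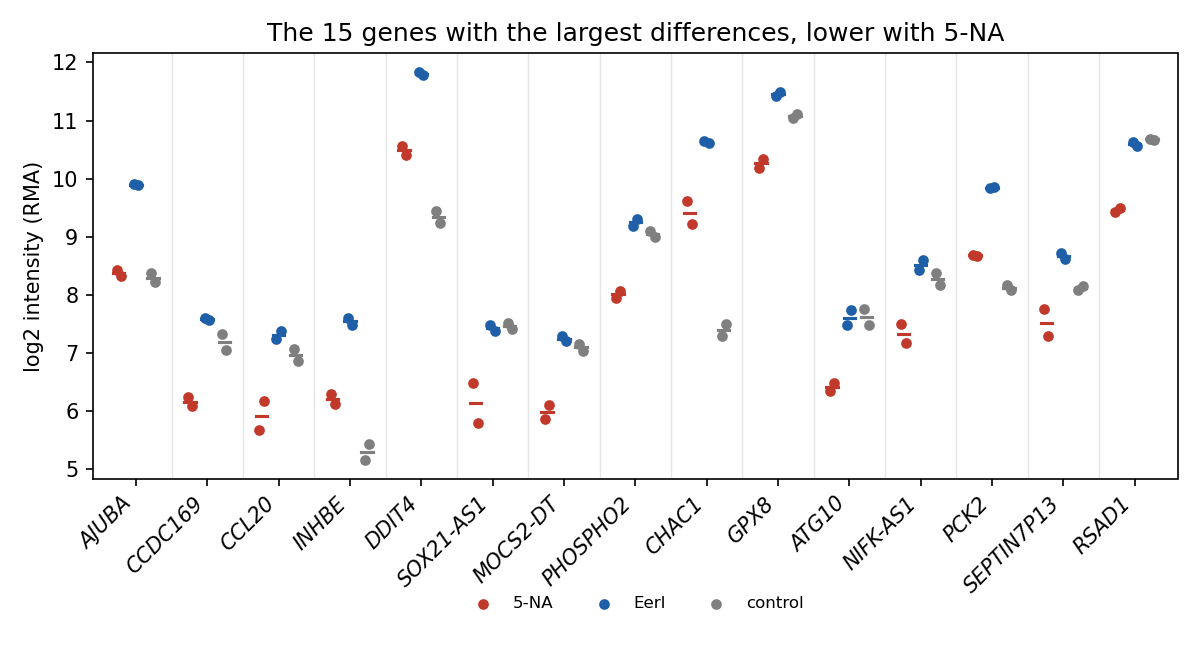
Log2 intensity of the 15 genes with the largest differences downward, with 5-NA (red), EerI (blue) and control (grey), 1 point per array and a bar at the mean. The control points lie near the 5-NA points for AJUBA, below both compounds for INHBE, DDIT4, CHAC1 and PCK2, and near the EerI points for RSAD1, ATG10 and SOX21-AS1.

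AJUBA, a LIM domain protein that holds back the LATS kinases of the Hippo pathway, had the largest difference downward. It was at 8.42 and 8.32 with 5-NA, against 9.90 and 9.89 with EerI and 8.37 and 8.22 in control cells, a difference of -1.52 (-1.73 to -1.32, adjusted p = 0.000103), so 5-NA-treated cells were at the control level and EerI-treated cells 1.60 above it. Of its 4 probe sets 3 passed the test, with differences of -1.62, -1.52 and -0.64. Of 14 Hippo pathway genes, 6 were higher with 5-NA (42.9%), AJUBA alone was lower and 7 did not pass the test. The higher ones included LATS2 at 9.08 and 9.01 against 8.11 and 8.27, the target CCN2 at 8.16 and 7.90 against 7.25 and 7.13, and the coactivator WWTR1 (TAZ) at 9.95 and 9.97 against 9.34 and 9.48 with EerI. The 6 fell to 3 without 5-NA replicate 2 or either EerI array. YAP1 differed by -0.12 (-0.31 to 0.08).

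Other large differences downward lay in genes whose control level was nearer EerI than 5-NA. RSAD1, a relative of radical SAM enzymes, was at 9.42 and 9.49 with 5-NA, against 10.63 and 10.56 with EerI and 10.68 and 10.67 in control cells. GPX8, an ER-resident peroxidase, was at 10.19 and 10.34 with 5-NA, against 11.42 and 11.50 with EerI and 11.04 and 11.11 in control cells. PHOSPHO2, a phosphatase, was at 7.94 and 8.07 with 5-NA, against 9.19 and 9.30 with EerI and a mean of 9.05 in control cells. ATG10, an autophagy conjugation enzyme, was at 6.34 and 6.47 with 5-NA against 7.47 and 7.73 with EerI, and 3 of its 4 probe sets passed the test. CCL20, a chemokine, was at 5.66 and 6.16 with 5-NA, against 7.23 and 7.37 with EerI and 7.06 and 6.86 in control cells. In each of these genes both 5-NA arrays lay below both control arrays. The remaining ones of the 15 were CCDC169, SEPTIN7P13 and the non-coding transcripts SOX21-AS1, MOCS2-DT and NIFK-AS1, with differences between -1.15 and -1.43. CCDC169 had 1 and NIFK-AS1 had 1 probe set that differed in this way, and the further probe sets of these genes gave -0.21 to 0.06 and 0.48. Of the 33 genes lower at 2-fold, 7 are long non-coding RNAs by their RefSeq type (21.2%), beside 3 of the 94 higher ones (3.19%) and 13.4% of all genes. By the adjusted p alone the share was 8.74% of the lower genes and 2.1% of the higher ones, both below that of all genes.

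The machinery that EerI is known to disturb was little different between the compounds. Of 21 measured ERAD genes, 2 were higher with 5-NA (9.52%, beside 7.93% of all genes) and none lower, with a median of 0.06, and 19 of the 21 had a 95% interval within 0.5 of 0. VCP, which encodes p97, was at 12.05 and 11.95 with 5-NA, against 11.71 and 11.67 with EerI and 11.73 and 11.73 in control cells, a difference of 0.31 (0.13 to 0.50, adjusted p = 0.0348), and lost its call without any of the 5-NA, EerI or control arrays. DERL1, a membrane channel subunit of ERAD, was at 11.66 and 11.69 with 5-NA against 11.22 and 11.31 with EerI, and lost its call without 5-NA replicate 2 or EerI replicate 1. SEL1L, EDEM1 and SELENOS differed by 0.02, -0.03 and -0.04, each with an interval within 0.25 of 0. Without either CBU-028 array, 1 ERAD gene was lower.

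Of 27 measured proteasome subunits, 1 was higher (3.7%) and 26 had an interval within 0.5 of 0. PSMD12, a subunit of the regulatory particle, was at 13.29 and 13.18 with 5-NA, against 12.74 and 12.70 with EerI and 12.65 and 12.69 in control cells. PSMC2, PSMC4, PSMD3 and PSMD8 differed by between -0.01 and 0.01. Ubiquitin genes gave 2 higher (25%, beside 7.93% of all genes) and 1 lower (12.5%, beside 9.66%) of 8. The p97-linked deubiquitinase YOD1 was at 10.03 and 10.01 with 5-NA against 9.57 and 9.63 with EerI. The polyubiquitin gene UBB differed by -0.00 (-0.17 to 0.17). All 3 calls were lost without EerI replicate 1. USP14 lost its call without any of the other 5-NA, EerI or control arrays, and UCHL5, the lower gene, without each of these except 5-NA replicate 1.

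ER chaperones differed in both directions around a median of -0.00. Of 23 measured genes, 2 were higher (8.7%) and 3 lower (13%), shares near those of all genes. ERN1 (IRE1), the sensor that splices XBP1, was at 9.19 and 8.88 with 5-NA, against 8.19 and 8.25 with EerI and 7.98 and 7.89 in control cells, a difference of 0.82 (0.58 to 1.06, adjusted p = 0.00174). DNAJB9, a chaperone induced through that arm, was at 10.88 and 10.46 with 5-NA, against 10.12 and 10.04 with EerI and 9.42 and 9.39 in control cells. ATF6, the third sensor, was lower at 9.73 and 9.65 with 5-NA against 10.10 and 10.09 with EerI. ERN1 kept its call when single arrays were left out. DNAJB9 lost it without 5-NA replicate 1 or either EerI array, and the 3 lower genes (ATF6, SIL1 and DNAJC10) were 2 without 5-NA replicate 1 and 0 without 5-NA replicate 2 or either EerI array. The abundant chaperones CALR, HSP90B1 and HYOU1 differed by 0.02, 0.00 and -0.02.

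Of 25 DNA replication genes, 7 were higher (28%) and 7 lower (28%), with a median of -0.06. The higher ones included the G1/S cyclins CCNE1 and CCNE2. CCNE1 was at 11.46 and 11.40 with 5-NA against 10.32 and 10.36 with EerI and 10.62 and 10.53 in control cells. A dimmer probe set of CCNE1 differed by 0.06 and did not pass the test. CCNE2 was at 11.20 and 11.05 with 5-NA against 10.03 and 10.25 with EerI. The licensing factors CDT1 and CDC6 were higher by 0.78 and 0.73. RFC4, a clamp loader subunit, was lower at 11.44 and 11.50 with 5-NA, against 12.19 and 12.23 with EerI and 11.94 and 12.02 in control cells. The lower genes were 4 without 5-NA replicate 2, either EerI array or either control array. Of 25 mitosis genes, none was higher and 7 were lower (28%), with a median of -0.25. KIF20A, AURKB and CENPA had differences of -0.50, -0.44 and -0.45, and CDK1 differed by -0.03 (-0.22 to 0.16). The 7 were 2 without either 5-NA array, 0 without EerI replicate 1, 3 without EerI replicate 2 or either control array, and 12 without either CBU-028 array.

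RNA45SN5, a copy of the 45S pre-rRNA gene, was at 9.96 and 10.12 with 5-NA, against 8.20 and 8.31 with EerI and 8.26 and 8.11 in control cells, a difference of 1.79 (1.56 to 2.01, adjusted p = 0.0001). The array's own control probe sets for 28S rRNA were higher by 1.09 (0.89 to 1.30) at the 5′ end and 1.03 (0.78 to 1.28) in the middle, while the dim 3′ set differed by 0.27. Those for 18S rRNA were higher by 0.58 to 0.73, and all 3 were highest in 5-NA replicate 2, at 12.83, 12.88 and 11.64, beside 12.63, 12.35 and 11.19 in 5-NA replicate 1. 5-NA replicate 2 is also the array with the ACTB difference of 0.363, and the part of RNA quality in the rRNA values was not tested. The rRNA gene has many near-identical copies, so RNA45SN5 stands for all of them. Whether its probe set reads the precursor or mature rRNA was not tested. RRN3, which recruits RNA polymerase I to these genes, was at 9.34 and 9.32 with 5-NA against 8.74 and 8.76 with EerI and 8.76 and 8.80 in control cells. Of the 19 genes of polymerase I and ribosome assembly, 4 were higher (21.1%) and 1 lower, with a median of 0.01. The 4 fell to 2 without either 5-NA array and to 1 without either EerI array, and the lower gene, TAF1B, lost its call without any 5-NA, EerI or control array, with 2 lower genes without either CBU-028 array.

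Ribosomal protein mRNAs showed no call in 21 measured genes, and 20 of them had an interval within 0.5 of 0, with RPS18 at 15.05 and 15.05 with 5-NA against 15.05 and 15.04 with EerI. Host genes of small nucleolar RNAs, whose spliced RNA is normally destroyed during translation, gave 4 higher of only 6 measured (66.7%, beside 7.93% of all genes). The largest difference was that of SNHG17, at 12.72 and 12.54 with 5-NA, against 11.80 and 11.80 with EerI and 11.38 and 11.34 in control cells. GAS5 and ZFAS1 had differences of 0.51 and 0.46, and DANCR was lower at 12.73 and 12.67 against 12.99 and 12.99. The 4 were 2 without either 5-NA array or EerI replicate 2 and 1 without EerI replicate 1, and DANCR lost its call without any 5-NA, EerI or control array.

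Metallothioneins, small zinc-binding proteins switched on by the factor MTF1, accounted for the lower members of their list. Of its 9 genes, 5 were lower (55.6%) and 2, MTF1 and the zinc exporter SLC30A1, were higher, with a median of -0.46. MT1X was at 11.20 and 11.47 with 5-NA, against 12.14 and 12.19 with EerI and 12.09 and 12.08 in control cells, a difference of -0.83 (-1.07 to -0.59). MT1H was at 10.56 and 10.71 with 5-NA against 11.31 and 11.36 with EerI, whereas MTF1 itself was higher, at 9.45 and 9.21 against 8.73 and 8.71. EerI was at the control level for these genes. The metallothioneins are a family of close copies whose probes may read each other. The 5 were 2 without 5-NA replicate 1 or EerI replicate 2 and 3 without EerI replicate 1, and the 2 higher genes were 1 or 0 without any 5-NA or EerI array.

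Sterol synthesis genes included members at which EerI, more than 5-NA, stood away from control. Of 17 measured genes, 4 were higher with 5-NA (23.5%), with a median of 0.02, and for all 4 the control mean was nearer 5-NA. IDI1, which makes the isoprenoid building block, was at 12.32 and 12.19 with 5-NA, against 11.37 and 11.50 with EerI and 12.13 and 12.04 in control cells. INSIG1, an ER protein that holds back sterol synthesis and is itself an ERAD substrate, was at 11.14 and 11.19 with 5-NA, against 10.42 and 10.51 with EerI and 11.37 and 11.36 in control cells. Both genes were more than 0.6 below control with EerI. HMGCS1 and SCD completed the 4, and the count was 2 without any 5-NA or EerI array. Without either CBU-028 array 1 gene of the list was lower. FASN differed by -0.05 (-0.28 to 0.17).

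Of 17 hypoxia-response genes, 3 were higher (17.6%), led by ADM, a vasodilating peptide, at 11.69 and 11.72 with 5-NA, against 10.06 and 10.31 with EerI and 10.35 and 10.31 in control cells. KDM3A, a histone demethylase of the same response, was at 10.52 and 10.51 against 9.56 and 9.66 with EerI, while ALDOA, a glycolytic target, differed by 0.04 (-0.13 to 0.21). Without either CBU-028 array 1 hypoxia gene was lower. Of 18 interferon-induced genes, 3 were higher (IRF1, IRF7 and IRF9, 16.7%) and 3 lower (IFIT1, IFIT5 and IFI35, 16.7%, beside 9.66% of all genes), with a median of 0.05. IFIT1 was at 6.62 and 6.56 with 5-NA, against 7.32 and 7.43 with EerI and 8.05 and 8.17 in control cells. NF-κB genes gave 3 higher of 15 (20%), with NFKBIE at 8.60 and 8.59 against 7.91 and 7.96 with EerI, and CXCL8 lower, a call lost without 5-NA replicate 1 or either EerI array, while NFKBIA differed by -0.01 (-0.21 to 0.19).

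Of 16 autophagy genes, 6 were higher (37.5%) and the receptor CALCOCO2 was lower, with a median of -0.02. MAP1LC3B, the membrane tag of autophagosomes, was at 12.05 and 11.94 with 5-NA, against 11.23 and 11.24 with EerI and 11.07 and 11.09 in control cells. GABARAPL2, a related tag, differed by -0.04 (-0.22 to 0.13). The 6 fell to 3 without EerI replicate 1. CALCOCO2 lost its call without 5-NA replicate 2 or EerI replicate 1, and 2 genes were lower without either CBU-028 array.

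Regulators with short-lived mRNA were higher in 11 of 21 cases (52.4%) and lower in 3, with a median of 0.44, and the 11 were 7 without EerI replicate 1. ZFP36, which marks other mRNAs for decay, was at 8.37 and 8.43 with 5-NA, against 7.68 and 7.59 with EerI and 7.64 and 7.69 in control cells. CCNL1, a cyclin of the splicing machinery, was at 11.56 and 11.55 against 10.91 and 10.89 with EerI. Splicing factors and SR protein kinases gave 5 higher (26.3%) and 1 lower of 19. CLK3 was at 10.43 and 10.40 against 9.82 and 9.90, and SRSF1 was lower at 12.66 and 12.65 against 13.03 and 13.09 with EerI, although 1 of its 8 probe sets was higher. The 5 fell to 2 without 5-NA replicate 1 or EerI replicate 2, 1 without EerI replicate 1 and 3 without either control array, and SRSF1 lost its call without 5-NA replicate 2 or either EerI array.

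ND6, which is read from the light strand of mitochondrial DNA, was at 11.42 and 11.33 with 5-NA, against 9.93 and 10.45 with EerI and 12.20 and 12.06 in control cells. Both compounds were thus below control, EerI by 1.94, and the difference between them was 1.19 (0.85 to 1.52, adjusted p = 0.00144). The heavy-strand transcripts ND2, ND4 and ATP6 differed by 0.08, 0.05 and 0.02, with intervals within 0.3 of 0. A further large difference upward was PHLDA2, an imprinted growth regulator, at 9.84 and 10.07 with 5-NA, against 8.32 and 8.53 with EerI and 9.15 and 9.12 in control cells, although 1 of its 3 probe sets alone passed the test. SERTAD1, a coactivator of E2F, was at 10.37 and 10.29 with 5-NA, against 8.62 and 8.69 with EerI and 8.95 and 8.88 in control cells, and ALDH8A1, an aldehyde dehydrogenase, at 7.78 and 7.45 against 5.78 and 6.13 with EerI.

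**Figure D5:**
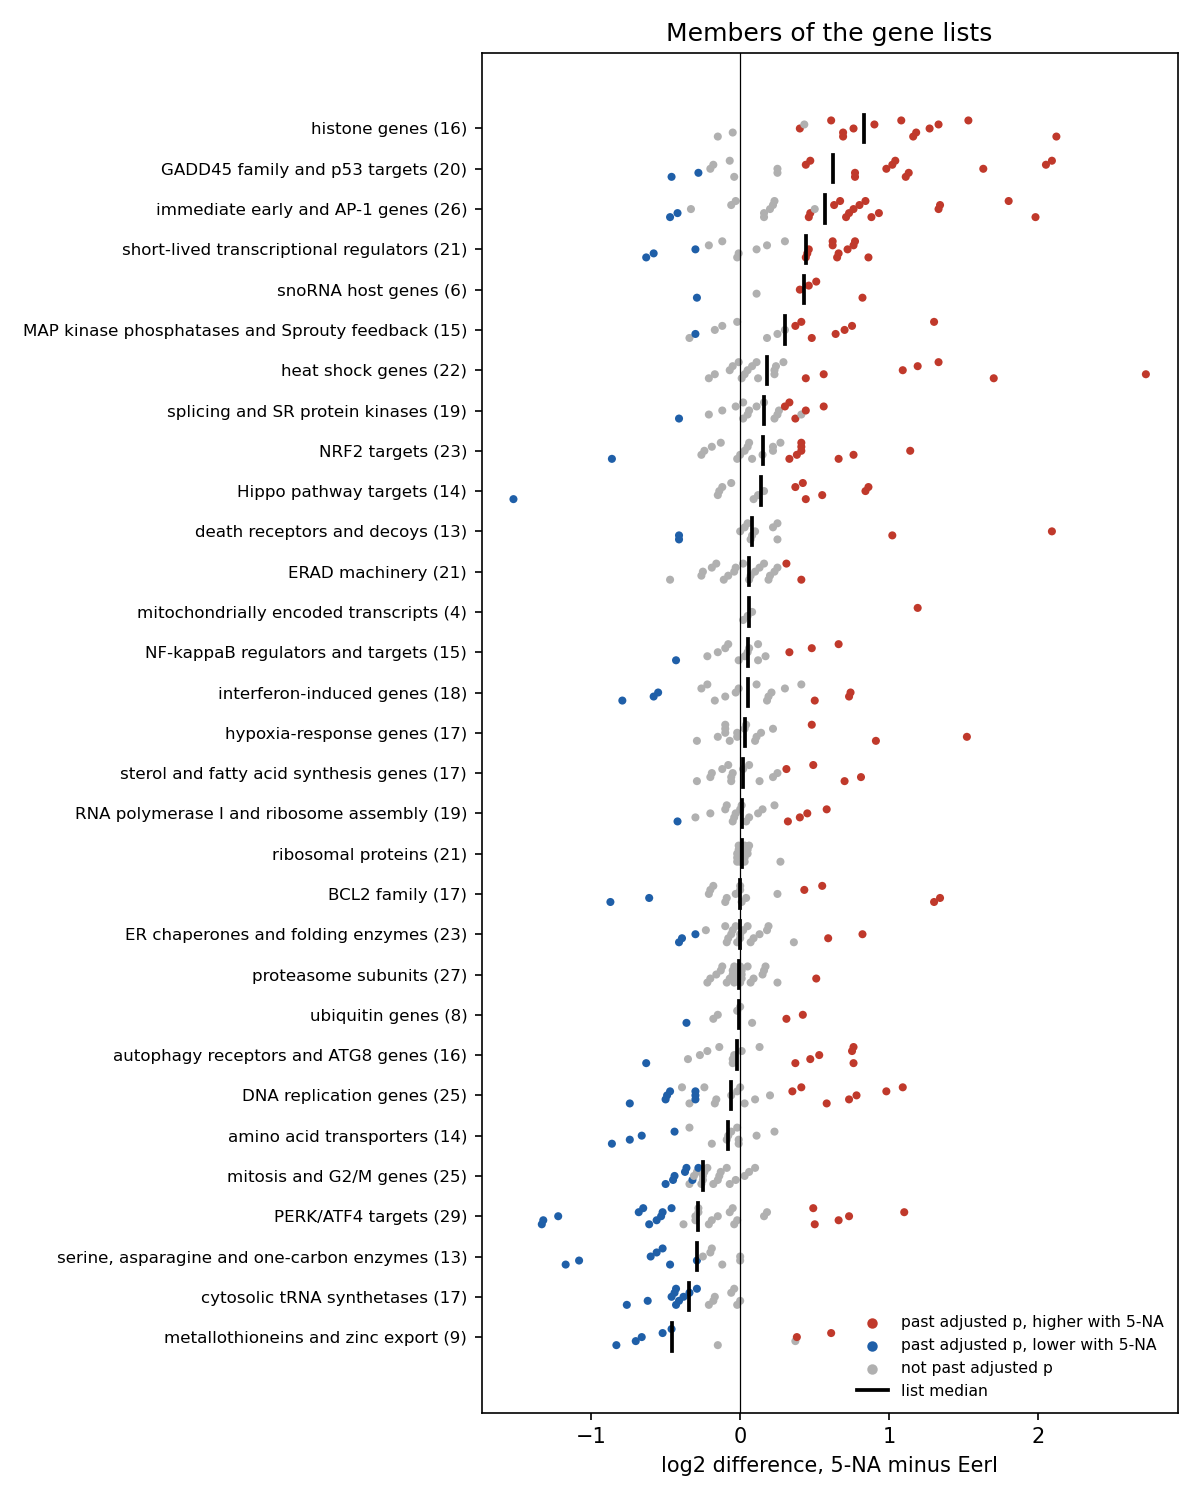
Log2 difference of 5-NA minus EerI for each measured member of the gene lists, ordered by list median (black bar), with the number of measured members in brackets. Red and blue points passed the adjusted p as higher or lower with 5-NA. Histone genes have the highest median (0.83) and metallothioneins the lowest (-0.46).

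The median genomic span was 13.1 kb for the 94 higher genes and 12.7 kb for the 33 lower ones, beside 24.7 kb for all genes, and 28.7% of the higher and 21.2% of the lower ones spanned under 5 kb, beside 15.2% of all. Genes called by the adjusted p alone lay on the other side of all genes, with medians of 30.6 kb for the higher and 27.6 kb for the lower ones, of which 10.1% and 12.6% spanned under 5 kb. By the adjusted p alone, the genes spanning over 300 kb gave 24 higher (3.09%) and 91 lower (11.7%) of 776, whereas those of 30 to 100 kb gave 10.1% higher and 10.6% lower.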

How the data were processed

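The authors hybridised 1 Affymetrix array per sample and made the log2 values with RMA before they were deposited, and the labels also name Partek, with versions not given. The array named in the methods is a smaller one than HG-U133 Plus 2.0, whose probe sets the values carry. The methods name TRIzol with a cleanup kit and the labels an RNeasy kit. RMA brings arrays to a common distribution, so a shift common to most genes cannot be seen, and signal over background cannot be gauged from the values.

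Group means (5-NA, EerI, CBU-028 and control, 8 arrays) entered 1 limma fit (version 3.58.1, R 4.3.3, with 4 residual and 5.08 prior degrees of freedom), and the contrast 5-NA minus EerI was tested with Benjamini-Hochberg adjustment over 54675 probe sets. The residual SD was 0.119 with 5-NA, 0.0974 with EerI, 0.163 with CBU-028 and 0.0921 in control cells, and CBU-028 entered only through the shared spread. Calls were made at an adjusted p under 0.05, with or without 2-fold. No set test was run. Of the probe sets, 41097 had a single symbol in the platform's annotation, 1801 several and 11777 none, and a gene was read from its brightest single-symbol probe set. List genes without one were not analysed here.

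The members and the 34 gene lists were chosen with earlier results of these data known. Lists overlap, so called genes such as SQSTM1, SLC7A11, CCN2, TAF1D and TNFRSF10D count in each list that holds them. The genes named are the 15 largest differences each way past 2-fold with no overlap of arrays, up to 5 called members of each list, up to 4 members with a 95% interval within 0.5 of 0, and ATF3, ATF4, PMAIP1, DDIT3 and VCP. Other called members complete short counts. Promoters are RefSeq sequences of GRCh38.p14. The fit was tested on simulated data. Alternatives were the methods' ANOVA, a 1.5-fold threshold, floors on dim probe sets at 5 and 7, 1 probe set per gene, other scaling, a trend in the prior variance, a replicate block, leaving out groups, arrays or _x_at probe sets and, chosen after seeing the data, leaving out the array's control probe sets.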

Additional observations from a re-analysis of the deposited data

How the results depend on the processing

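At 2-fold, the 196 higher and 73 lower probe sets became 171 and 60 under the methods' ANOVA with adjustment, 1225 and 972 at 1.5-fold, and 94 and 33 with 1 probe set per gene. A floor at a mean log2 value of 7 left 48 lower. By the adjusted p alone, the 3787 higher and 3872 lower probe sets became 1930 and 1938 under the ANOVA with adjustment, 6112 and 6851 without it, 1225 and 972 at 1.5-fold, and 1956 and 2463 with 1 probe set per gene and the adjustment over genes. Leaving out single arrays gave 181 to 232 higher and 70 to 90 lower at 2-fold, and 1294 to 4955 higher and 1271 to 5295 lower by the adjusted p, with the fewest without EerI replicate 1. A replicate block gave 196 and 73, and 3535 and 3666. The labels give no pairing, and same-numbered deviations of 5-NA and EerI correlated at 0.146. Leaving out the array's control probe sets, chosen after seeing the data, gave 194 and 73. Scaling moved the share of higher calls between 49.2% and 50.7%. Of 275 genes tested under the alternatives, 146 were past the adjusted p in the main fit and so had a call to lose. Of these 146, 41 lost their call under the adjusted ANOVA, and more did so without EerI replicate 1. No result reversed. With 2 arrays a group, the precision of every value is limited by their number.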
